A study of Homo sapiens with 6 samples.

Results

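The snoRNA host genes of U87-MG cells were examined in the transcriptome of cells labelled as CHRM3 knockdown and of negative control cells. The 32 genes were chosen by name from the 61731 genes and loci of the deposited table, as 28 genes whose symbol is SNHG (small nucleolar RNA host gene) followed by digits, with GAS5, ZFAS1, EPB41L4A-AS1 and DANCR. U87-MG is a line of human glioblastoma cells long kept in culture. RNA was sequenced from 6 libraries, 3 of the negative control (U87_NC, whose genotype label reads Normal control) and 3 of the knockdown (U87_KD, labelled CHRM Knockdown), with no other treatment given. The knockdown was made by lentivirus, and the KD sequence that was used, whether the cells were a pool or a clone, and whether replicates were grown apart are not given in the sources used here. The p-values therefore measure only the spread between these libraries, which may be technical. Each value is a TPM, a gene's share of its library after allowing for the length of its transcripts, on a fixed total. Because TPM holds no number of reads, the depth is unknown and no counting error is given.

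Small nucleolar RNAs (snoRNAs) are short RNAs that guide the chemical modification of ribosomal and spliceosomal RNA. Those with boxes C and D guide methylation of the ribose, and those with boxes H and ACA guide the conversion of uridine to pseudouridine. Most human snoRNAs are not transcribed alone but are cut out of the introns of a host transcript, which may encode a protein or, as in the SNHG genes, be a spliced RNA with little or no coding potential. Several host transcripts begin with an oligopyrimidine tract like that of ribosomal protein mRNAs, and many are degraded after splicing by nonsense-mediated decay, so that their level reflects both transcription and decay. In tumours, GAS5 (growth arrest specific 5) is known as a growth-restraining RNA, whereas SNHG1, SNHG12, SNHG16 and DANCR are mostly described as growth-promoting.

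The group was checked against its labels first. CHRM3, the targeted receptor, was 0.02, 0.09 and 0.13 TPM in the controls and 0.13, 0.01 and 0.02 TPM in the knockdown-labelled libraries 1, 2 and 3, so a reduction was not detectable at these low levels in the TPM table. The study measured CHRM3 also by RT-PCR and Western blot, which were not analysed here, and the groups are named by their labels. Of 10 glioblastoma markers 2, S100B and SOX2, were under 1 TPM in every library, and GFAP, which defines astrocytes, was between 0.87 and 1.46 TPM, whereas VIM was between 6528 and 7451 TPM. Of 9 leukocyte markers, 7 were under 1 TPM in every library and TYROBP and CD3E were listed at 0, while the summed level of the list, most of it CD68, was 251.9 to 256.3 TPM in the controls and 173.4 to 181.6 TPM in the knockdown-labelled libraries. Of 8 endothelial and epithelial markers 6 were under 1 TPM in every library, and the list summed to 4.57 to 5.04 TPM and 3.26 to 3.32 TPM. Mitochondrial transcripts made up 5.32% to 5.47% of the control libraries and 4.41% to 4.87% of the knockdown-labelled ones.

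The sequences at the start of the abundant host genes are shown first, because the pyrimidine tract is the feature that these genes are known to share with ribosomal protein mRNAs. Windows from RefSeq (build GRCh38.p14) are shown for 10 of the 12 most abundant members, and 10 bases before and 20 bases from the annotated start are given, 5′ to 3′ on the strand of the gene. The capitals mark an unbroken run of C and T that begins with a C at the annotated start.
SNHG29 (chr17:16438977-16439006, plus strand): ccttttgtgaggattgggatattccgactc
SNHG5 (chr6:85678714-85678743, minus strand): gcacttcggtCTTTTacgtcggccttcgcg
ZFAS1 (chr20:49278632-49278661, plus strand): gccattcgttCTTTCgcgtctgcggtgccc
GAS5 (chr1:173869026-173869055, minus strand): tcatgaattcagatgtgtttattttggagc
SNHG8 (chr4:118278752-118278781, plus strand): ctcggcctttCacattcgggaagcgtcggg
DANCR (chr4:52712384-52712413, plus strand): tgcgcgccccgcccttgcccagagtcttcc
SNHG32 (chr6:31834906-31834935, plus strand): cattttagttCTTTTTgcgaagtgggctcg
SNHG1 (chr11:62855866-62855895, minus strand): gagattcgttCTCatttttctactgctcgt
SNHG7 (chr9:136728165-136728194, minus strand): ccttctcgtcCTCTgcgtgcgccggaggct
SNHG16 (chr17:76557754-76557783, plus strand): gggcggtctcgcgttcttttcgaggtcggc
The start sought was a C followed by at least 4 bases that are each C or T, read only at the annotated base and on the strand of the gene. It was present in 7 of the 24 tested members with a window (SNHG5, ZFAS1, SNHG32, SNHG19, SNHG12, SNHG18 and SNHG4). Among all tested genes with a window it was present in 5.58%, and in 4.07% of all 35116 windows, which include genes that were not tested. The annotated base decides the match, since 15 of the 28 tested members had at least 1 GENCODE 29 transcript with such a start. Some RefSeq windows, such as that of GAS5, lie outside the gene as placed by GENCODE 29.

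Of the 32 members, 28 averaged 1 TPM or more across all 6 libraries and were tested together with all other genes past this limit, 13722 in all. The test was limma on log2(TPM + 1), with p-values adjusted over the 13722 genes by the Benjamini-Hochberg method. A member is called lower or higher at a limma adjusted p under 0.05. Lower in the knockdown-labelled libraries were 14 of the 28 members, where 24.0% of all tested genes were lower. Higher were 2 of the 28 (7.14%), where 12.1% of all tested genes were higher. In bulk RNA, fewer cells of a kind and less RNA per cell cannot be told apart. The falls were small, with log2 fold changes from -0.56 for SNHG17 to -0.12 for SNHG8. The median log2 fold change was -0.22 over the 28 members and -0.06 over all tested genes.

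The count of lower members depended on the scaling of the libraries. TPM is relative to everything else in a library, and after median-of-ratios scaling, which sets the median log2 fold change of all tested genes to 0.00, 8 members were lower and 4 higher, where 16.4% and 16.8% of all tested genes were. The members kept a median of -0.15 under that scaling. Among genes that averaged 5 TPM or more, 14 of the 25 members were lower and 2 higher, where 30.6% and 15.2% of all genes at that level were. When the log2 fold change also had to be 1 or more in size, 0 members were called by limma, where 1.87% of all tested genes were, and 18 members had an unadjusted p under 0.05, where 46.2% of all tested genes had one. All 3 knockdown-labelled libraries lay below all 3 controls for 16 members (57.1%), where this held for 32.8% of all tested genes, and above them for 2 members, where it held for 17.4%.

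**Figure D1:**
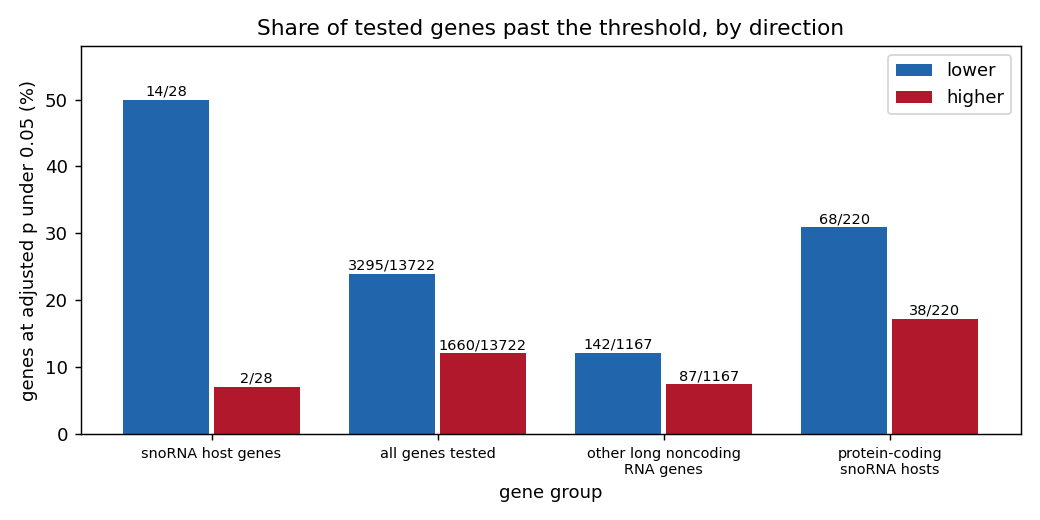
Share of tested genes, in percent, at a limma adjusted p under 0.05 and lower (blue) or higher (red) in the knockdown-labelled libraries, with the number called and tested over each bar. The snoRNA host genes have 14 of 28 lower and 2 of 28 higher, and the other long noncoding RNA genes have 142 and 87 of 1167.

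The host genes were among the most abundant long noncoding RNAs of these cells. Of the 20 most abundant genes among the 1195 that were tested members or long noncoding RNA genes of GENCODE 29, 10 were members, with SNHG29 in the first place. The median of the mean TPM was 38.8 for the tested members and 2.76 for the 1167 other long noncoding RNA genes tested, of which 142 (12.2%) were lower and 87 (7.46%) higher. The members summed to 3782, 3815 and 3682 TPM in controls 1, 2 and 3 and to 3080, 3341 and 3411 TPM in knockdown-labelled libraries 1, 2 and 3. Part of that difference came from SNHG25, described below, and without it the sums were 3372 ± 42.7 TPM and 3142 ± 65.2 TPM (SD, n = 3 each).

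**Figure D2:**
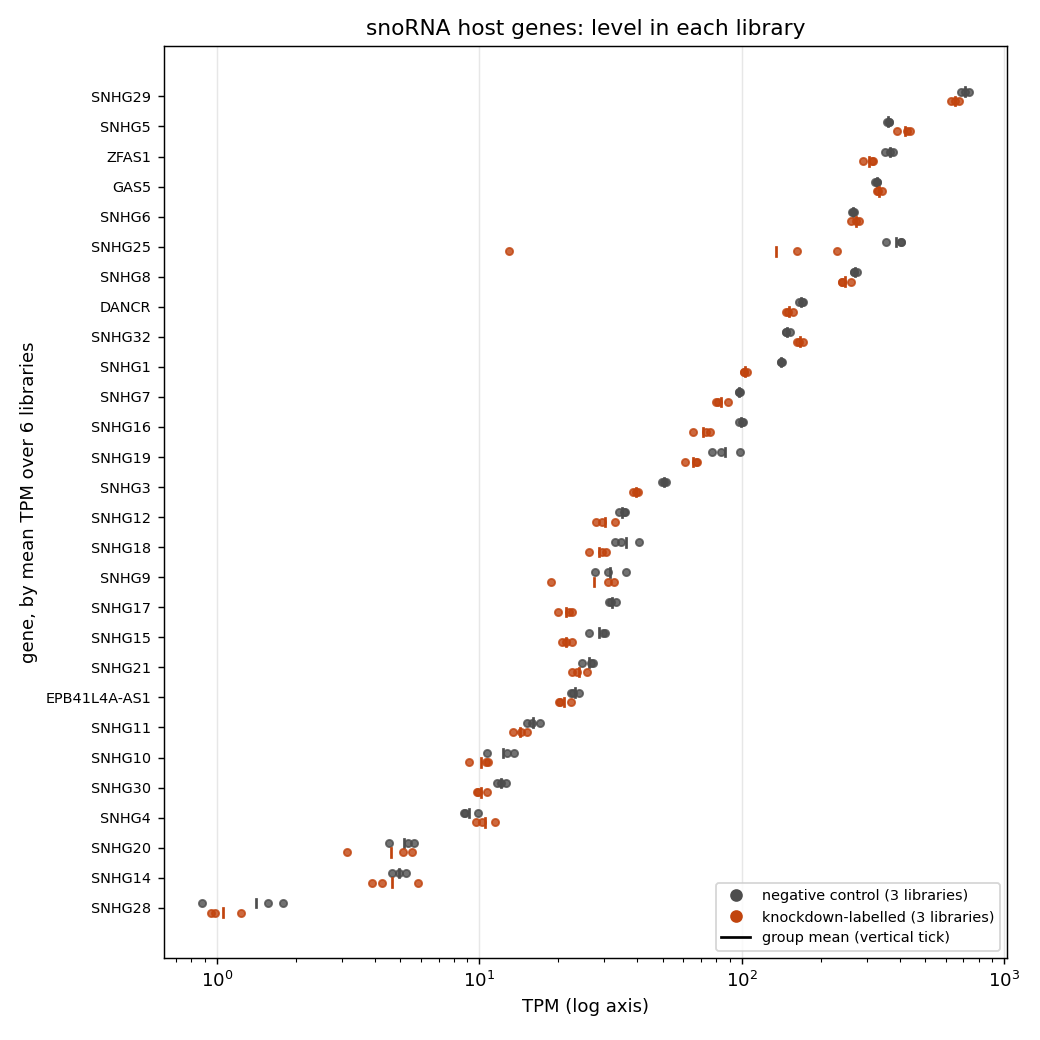
TPM of the 28 tested snoRNA host genes in each library, on a log axis, ordered by mean level, with control libraries in grey, knockdown-labelled libraries in orange and a vertical tick at each group mean. Means run from 1.24 TPM for SNHG28 to 680.5 TPM for SNHG29, and the lone point far to the left is SNHG25 in knockdown-labelled library 1 at 12.96 TPM.

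The clearest falls were those of SNHG17, SNHG16, SNHG1, SNHG15 and SNHG3. SNHG17 (ENSG00000196756, GRCh38 chromosome 20 from 38420588 to 38435353, minus strand) contains 5 annotated snoRNA genes, SNORA71A to SNORA71D among them, of the H/ACA kind. It was 31.27, 31.70 and 33.23 TPM in the controls and 22.49, 21.97 and 19.92 TPM in the knockdown-labelled libraries. The groups were well apart, with means of 32.1 ± 1.03 and 21.5 ± 1.36 TPM (SD, n = 3 each), and differed by -0.56 ± 0.0545 on the log2 scale (difference and its standard error, limma adjusted p = 0.000539). SNHG16 (ENSG00000163597, chromosome 17 from 76557766 to 76565348) contains SNORD1A, SNORD1B and SNORD1C, which are C/D snoRNAs. It was 100.43, 101.07 and 98.10 TPM in the controls and 73.35, 75.50 and 65.49 TPM in the knockdown-labelled libraries, a log2 difference of -0.48 ± 0.0541 (limma adjusted p = 0.000947). The lowest control exceeded the highest knockdown-labelled library by more than the range of either group.

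SNHG1 (ENSG00000255717, chromosome 11 from 62851988 to 62855914, minus strand) contains 7 annotated snoRNA genes, among them SNORD22, SNORD25 and SNORD30. It had the smallest spread of all tested members, at 141.77, 141.96 and 141.71 TPM in the controls and 102.04, 104.66 and 102.35 TPM in the knockdown-labelled libraries. The log2 difference was -0.46 ± 0.0212 (limma adjusted p = 2.92e-05). SNHG3 (ENSG00000242125, chromosome 1 from 28505980 to 28510892), the host of the H/ACA snoRNAs SNORA73A and SNORA73B, was 50.42, 51.57 and 49.82 TPM in the controls and 39.57, 38.59 and 40.31 TPM in the knockdown-labelled libraries. The groups did not overlap, and the log2 difference was -0.35 ± 0.0314 (limma adjusted p = 0.00038). SNHG15 (ENSG00000232956, chromosome 7), the host of SNORA9, was 30.18, 26.14 and 29.50 TPM against 22.51, 20.62 and 21.32 TPM. The log2 difference was -0.40 ± 0.0643 (limma adjusted p = 0.00422), and these groups did not overlap either.

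Smaller falls were seen in ZFAS1 and SNHG7, whose groups did not overlap either. ZFAS1 (ENSG00000177410, chromosome 20 from 49278178 to 49295738), an antisense gene that contains SNORD12, SNORD12B and SNORD12C, was 368.02, 379.14 and 351.59 TPM in the controls and 290.95, 315.51 and 314.77 TPM in the knockdown-labelled libraries, a log2 difference of -0.25 (limma adjusted p = 0.00448). SNHG7 (ENSG00000233016, chromosome 9), the host of SNORA17A and SNORA17B, was 98.60, 97.68 and 98.08 TPM in the controls, and the knockdown-labelled libraries were lower and more spread, at 79.57, 81.52 and 88.58 TPM (log2 fold change -0.24, limma adjusted p = 0.00614). These 7 genes were lower past the threshold in all 16 alternative fits, including both rescalings of the libraries. The share of all tested genes called in every fit is not given here, so how unusual this is cannot be read from it.

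The other 7 falls were called with the deposited TPM but not in every alternative. SNHG29 (ENSG00000175061, chromosome 17 from 16438822 to 16478678), the most abundant member and the host of SNORD49A, SNORD49B and SNORD65, was 707.46, 735.95 and 686.40 TPM in the controls and 629.37, 650.43 and 673.36 TPM in the knockdown-labelled libraries. The gap between the groups was smaller than the range within either, and the log2 difference was -0.12 (limma adjusted p = 0.0312). SNHG8, the host of SNORA24, was 274.48, 267.78 and 269.09 TPM against 261.99, 241.88 and 242.32 TPM, a difference of -0.12 on the log2 scale (limma adjusted p = 0.0362). DANCR, a repressor of differentiation that contains SNORA26, was 164.75, 169.97 and 171.84 TPM against 147.36, 157.52 and 149.87 TPM, a log2 difference of -0.16 (limma adjusted p = 0.0111). SNHG18, the host of SNORD123, was 40.73, 34.68 and 32.98 TPM in the controls and 29.45, 30.35 and 26.25 TPM in the knockdown-labelled libraries, a log2 difference of -0.32 (limma adjusted p = 0.034). SNHG12, with 5 annotated snoRNA genes (SNORA16A being entered more than once), fell by 0.22 on the log2 scale (limma adjusted p = 0.0367). SNHG30, the host of SNORD7, fell by 0.24 (limma adjusted p = 0.0185). Once scaled by median of ratios, the 6 genes named here were no longer past the threshold, with limma adjusted p of 0.294 for SNHG29, 0.318 for SNHG8, 0.0729 for DANCR, 0.0743 for SNHG18, 0.114 for SNHG12 and 0.0529 for SNHG30. Single libraries also decided these calls. SNHG29 was lost in 4 of the 6 fits that left out 1 library, SNHG8, SNHG12 and SNHG18 in 5 each, and SNHG30 in 4, whereas DANCR was lost in none of them. SNHG19, the host of SNORD60, was 83.80, 98.89 and 77.00 TPM in the controls and 67.34, 60.69 and 67.18 TPM in the knockdown-labelled libraries (log2 fold change -0.40, limma adjusted p = 0.0176). Its call was lost when knockdown replicate 2 was left out (limma adjusted p = 0.0646) and also in the fit with a term for the replicate number.

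**Figure D3:**
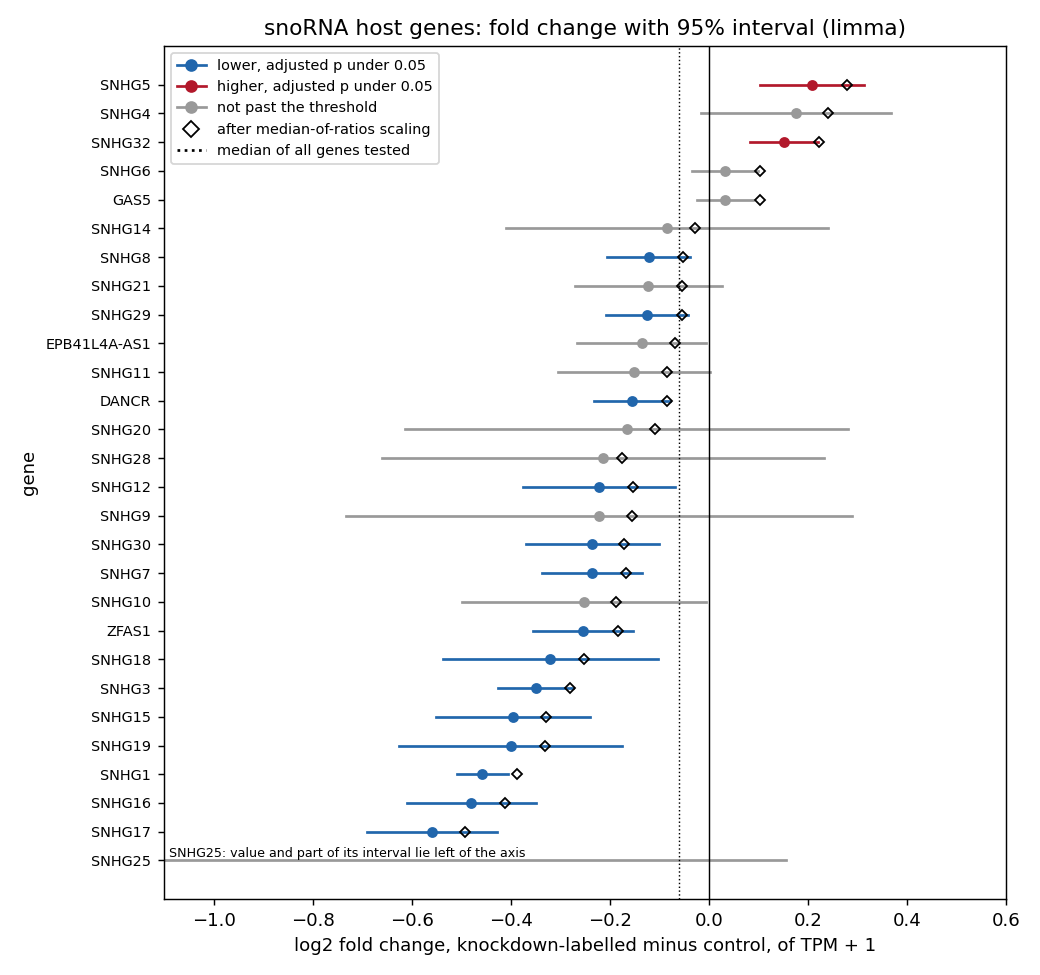
Log2 fold change of TPM + 1, knockdown-labelled minus control, with its 95% interval from limma, for the 28 tested snoRNA host genes, in blue where lower, red where higher and grey where not past the threshold, with open diamonds for median-of-ratios scaling. All 28 diamonds lie to the right of their points, and those of the 14 lower genes stay below 0. SNHG25, at -2.27, lies beyond the axis.

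SNHG5 and SNHG32 were the 2 members that rose, and both did so in all 16 alternative fits. SNHG5 (ENSG00000203875, chromosome 6 from 85660950 to 85678748, minus strand), in which GENCODE 29 places SNORD50B, was 363.74, 358.11 and 363.06 TPM in the controls and 389.54, 427.31 and 438.65 TPM in the knockdown-labelled libraries. The controls lay within a few TPM of each other and all 3 knockdown-labelled libraries lay above them, a log2 difference of 0.21 ± 0.0437 (limma adjusted p = 0.0116). SNHG32 (ENSG00000204387, chromosome 6 from 31834608 to 31839766), which GENCODE 29 still lists as the protein-coding gene C6orf48 and which contains SNORD48 and SNORD52, was 153.45, 147.68 and 147.57 TPM in the controls. It was 164.97, 162.69 and 171.16 TPM in the knockdown-labelled libraries, a log2 difference of 0.15 ± 0.0288 (limma adjusted p = 0.00786). Both starts printed above open with a pyrimidine tract, as does that of ZFAS1, which fell.

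GAS5 and SNHG6, both among the most abundant members, did not pass the threshold with the deposited TPM. GAS5 (ENSG00000234741, chromosome 1 from 173863900 to 173868882, minus strand) was 323.16, 328.22 and 328.98 TPM in the controls and 331.18, 344.31 and 327.32 TPM in the knockdown-labelled libraries. The groups overlapped, and the 95% interval of the log2 fold change of 0.03 ran from -0.02 to 0.09 (limma adjusted p = 0.34). SNHG6, the host of SNORD87, was 263.35, 265.71 and 268.47 TPM against 262.20, 280.22 and 273.57 TPM, with an interval from -0.03 to 0.10 (limma adjusted p = 0.407). With median-of-ratios scaling both were higher, by a log2 difference of 0.10 each (limma adjusted p = 0.0129 for GAS5 and 0.0259 for SNHG6), so whether they changed depends on the scaling, and none of the intervals reaches a fall of the size seen in SNHG1.

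SNHG25 had the widest spread of the tested members and the largest difference in level, which did not pass the test. It is a short gene on chromosome 17 from 64145970 to 64146476, plus strand, with 278 exonic bases and 2 annotated transcripts. The shorter transcript, of 106 bases, is shown because, by the study's methods, a single sequencing read was longer than it:
SNHG25 transcript, GRCh38: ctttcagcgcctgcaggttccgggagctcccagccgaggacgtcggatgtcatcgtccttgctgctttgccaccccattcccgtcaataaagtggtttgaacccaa
SNHG25 was 403.96, 404.31 and 355.29 TPM in the controls and 12.96, 162.02 and 230.04 TPM in knockdown-labelled libraries 1, 2 and 3. All 3 of the latter lay below the controls, but they were far apart, and the log2 difference of -2.27 ± 1.01 had a 95% interval from -4.69 to 0.16 (limma adjusted p = 0.129). Without knockdown replicate 1, SNHG25 fell by 1 on the log2 scale and was called (limma adjusted p = 0.00804). SNHG9, with 551 exonic bases, was also lowest in that library, at 18.81 TPM against 32.60 and 30.93 TPM in the other knockdown-labelled libraries and 36.17, 30.82 and 27.52 TPM in the controls (limma adjusted p = 0.459). SNHG19, with 342 exonic bases, was 67.34 TPM there and 60.69 and 67.18 TPM in the others, so the low value of library 1 was not seen in all short members.

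**Figure D4:**
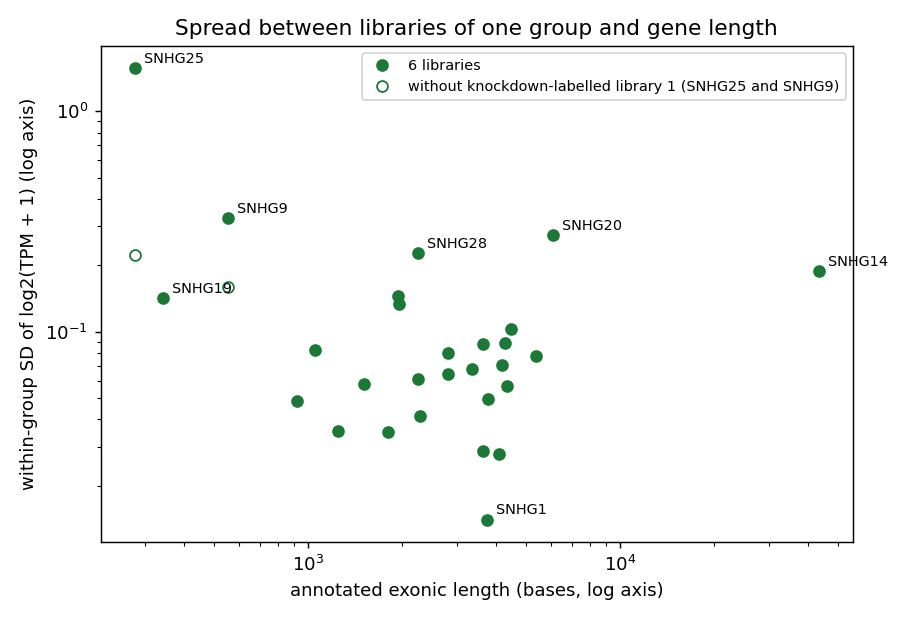
Within-group SD of log2(TPM + 1), pooled over both groups, against the annotated exonic length in bases for the 28 tested snoRNA host genes, both on log axes, with open circles for SNHG25 and SNHG9 without knockdown-labelled library 1. The SD of SNHG25 is 1.56 with all 6 libraries and 0.223 without that library, and the median over the members is 0.0737.

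The remaining tested members did not pass the threshold. EPB41L4A-AS1, SNHG21, SNHG11 and SNHG10 had log2 fold changes of -0.14, -0.12, -0.15 and -0.25, with limma adjusted p between 0.0982 and 0.172, and of these SNHG11 alone had groups that did not overlap. SNHG4 was at 0.18 on the log2 scale (limma adjusted p = 0.134). SNHG20, SNHG14 and SNHG28 were under 6 TPM in every library and had intervals on both sides of 0, the widest from -0.61 to 0.28 for SNHG20. The 4 members under the limit for testing were SNHG22 (0.59 to 1.19 TPM), SNHG31 (0.26 to 0.73 TPM), SNHG26 (0.06 to 0.26 TPM) and SNHG27, which was listed at 0 in all 6 libraries. SNHG31 was 0.73, 0.46 and 0.56 TPM in the controls and 0.28, 0.31 and 0.26 TPM in the knockdown-labelled libraries.

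The snoRNAs themselves were mostly listed at 0 TPM. GENCODE 29 places 144 snoRNA and scaRNA genes wholly within 30 of the members on the same strand, 84 of them in SNHG14. All 144 are listed in the table. None is placed in SNHG27 or in GAS5, although GAS5 was chosen as a host gene, so the 144 may not be complete. Some snoRNAs have more than 1 entry at nearly the same place, such as SNORA16A in SNHG12, so the entries outnumber distinct snoRNAs. Of the 144 entries, 134 were at 0 TPM in every library and 0 were above 0 in all 6. Above 0 in at least 5 were 3, namely SNORA73A and SNORA73B of SNHG3 and SNORA71B of SNHG17. SNORA73A was 0, 14 and 0.56 TPM in the controls and 4.34, 8.80 and 6.14 TPM in the knockdown-labelled libraries, so single libraries ranged over more than the groups differed. Of the 8 snoRNA genes averaging 1 TPM or more, 0 were called by limma, and 0 had an unadjusted p under 0.05. Of the 144, 99 do not lie wholly within an exon of any annotated transcript of the host and 45 lie within an exon of at least 1 transcript, SNORD49A and SNORA61 among the latter. Box C/D snoRNAs of the most abundant host and of the most variable one, and 1 box H/ACA snoRNA, are shown so that the 2 kinds can be compared. The capitals mark box C (TGATGA in the first 15 bases) and box D (CTGA in the last 10 bases), or the ACA that stands 3 bases before the end.
SNORD49A, in SNHG29 (chr17:16440036-16440106, plus strand): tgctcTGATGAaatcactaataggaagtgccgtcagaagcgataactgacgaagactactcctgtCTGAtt
SNORD104, in SNHG25 (chr17:64146083-64146152, plus strand): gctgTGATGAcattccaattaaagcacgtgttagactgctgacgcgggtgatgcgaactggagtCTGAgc
SNORA61, in SNHG12 (chr1:28579764-28579893, minus strand): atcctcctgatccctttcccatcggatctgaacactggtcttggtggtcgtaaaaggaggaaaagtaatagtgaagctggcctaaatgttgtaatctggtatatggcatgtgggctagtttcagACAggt
Boxes C and D so placed were found in 85 of the 108 hosted genes with SNORD names and in 16.1% of the 991 snoRNA and scaRNA genes of the table, and the ACA was found in 14 of the 24 with SNORA names and in 30.9% of the 991. The 991 include the hosted genes and snoRNAs of both kinds, and most of the hosted SNORD genes lie in SNHG14. SNORD49A and SNORD104 were listed at 0 TPM in every library, and SNORA61 was above 0 in 3 of the 6 libraries. The hosted genes are 59 to 275 bases long, and TPM is unreliable for RNAs this short. A value of 0 therefore does not show that a snoRNA was absent, and the lack of calls does not show that the snoRNAs were unchanged.

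Members were then set beside the protein-coding genes that overlap them or start within 1 kb of their start, because no source states whether counting used the strand, and reads from overlapping genes on opposite strands may not have been told apart. Of 25 such genes of the annotation considered, 13 were tested. SLC3A2, a subunit of amino acid transporters, starts 188 bases from SNHG1 on the opposite strand and was 163.4 ± 1.98 TPM in controls and 111.2 ± 2.22 TPM in the others (SD, n = 3 each), a log2 difference of -0.55 next to -0.46 for SNHG1 (limma adjusted p = 2.34e-05 for SLC3A2). ZNFX1, a helicase whose start lies 248 bases from that of ZFAS1 on the opposite strand, fell by 0.52 on the log2 scale (limma adjusted p = 0.000194), next to -0.25 for ZFAS1. The level of ZFAS1 relative to ZNFX1 was 22.4, 23.2 and 21.7 in the controls and 26.3, 28.3 and 28.3 in the knockdown-labelled libraries. RCC1, a chromatin-bound exchange factor whose annotated gene starts 37 bases from SNHG3 on the same strand, fell by 0.10 (limma adjusted p = 0.0454), next to -0.35 for SNHG3. SNHG3 lies wholly within the annotated RCC1 gene, and how reads were shared between them was not tested. RCC1 was no longer called after median-of-ratios scaling (limma adjusted p = 0.427) or without any 1 library (0.0568 to 0.115 by leave-one-out).

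The difference between a host gene and its neighbour was not tested for any of these pairs. SEMA5A, a semaphorin, starts 125 bases from SNHG18 on the opposite strand and rose from 2.87 ± 0.161 to 5.28 ± 0.13 TPM (SD, n = 3 each; log2 fold change 0.70, limma adjusted p = 0.000705), whereas SNHG18 fell. SNHG18 relative to SEMA5A was 13.4, 12.8 and 11.6 in the controls and 5.57, 5.61 and 5.10 in the knockdown-labelled libraries. RPS2, a ribosomal protein gene that starts 99 bases from SNHG9, rose by 0.53 on the log2 scale (limma adjusted p = 0.000483), while SNHG9 had -0.22 and did not pass. SIL1, which overlaps SNHG4 on the opposite strand, rose by 0.35 (limma adjusted p = 0.000927), next to 0.18 for SNHG4, which did not pass. The other 7 genes did not pass the threshold. They were TRAF7 beside SNHG19, TRNAU1AP beside SNHG12, GLRX5 beside SNHG10, SEC14L1 beside SNHG20, SNRPN and UBE3A beside SNHG14, and MATR3 beside SNHG4, with log2 fold changes from -0.06 for UBE3A to 0.05 for TRAF7.

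**Figure D5:**
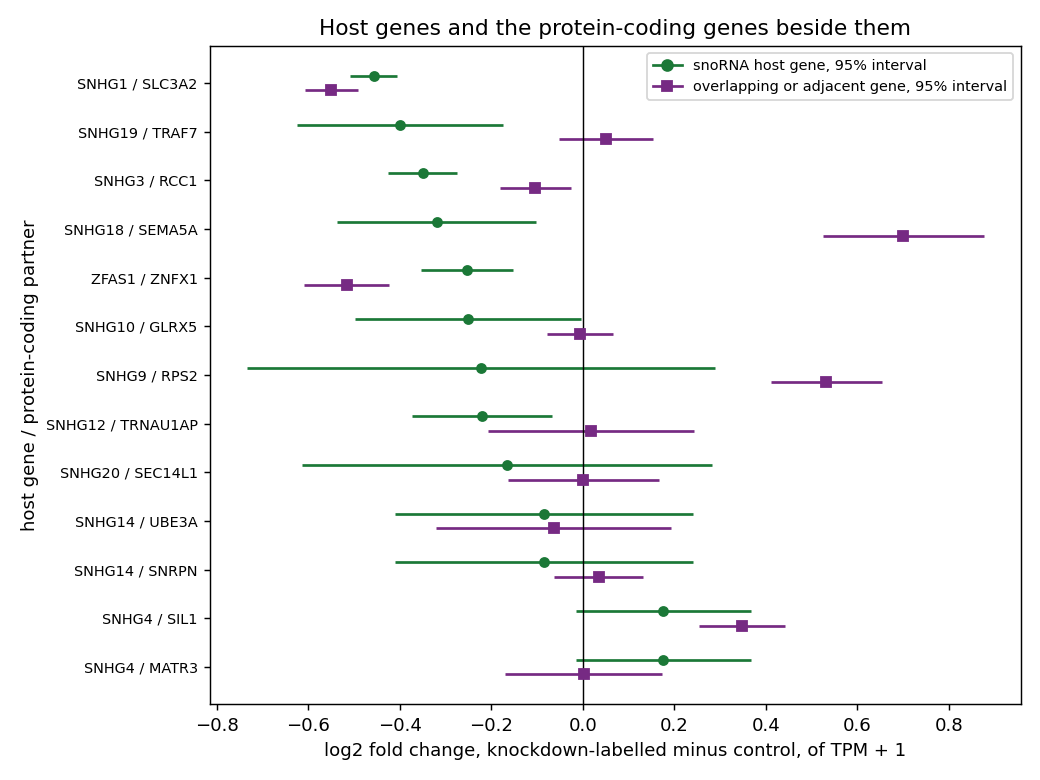
Log2 fold change of TPM + 1, knockdown-labelled minus control, with 95% limma intervals, for snoRNA host genes (green circles) and 13 tested protein-coding genes that overlap them or start within 1 kb (purple squares). SNHG1 and SLC3A2 lie together at -0.46 and -0.55, and SNHG18 and SEMA5A lie apart at -0.32 and 0.70.

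Among members with a pyrimidine start, 4 of 7 were lower and 2 higher (median log2 fold change -0.22), and among the 17 with another start, 9 were lower and 0 higher (median -0.17). Over all tested genes with a window, 146 of the 551 with such a start were lower and 87 higher, against 2404 and 1218 of the 9332 without. A list of 18 mRNAs taken to carry such tracts, of translation factors and other proteins, was mixed. Of them 6 were lower and 5 higher (median -0.03), where 24.0% and 12.1% of all tested genes were. After median-of-ratios scaling 4 were lower and 7 higher, where 16.4% and 16.8% of all tested genes were. Whether each of the 18 has such a start was not checked. EEF2, EIF2S3 and HNRNPA1 fell by 0.38, 0.30 and 0.23 on the log2 scale, and PABPC1, RACK1 and BTF3 rose by 0.26, 0.18 and 0.15. Of 14 genes of mTOR and LARP1 control over these mRNAs, 4 were lower and 2 higher (median -0.02), with 4 and 3 after median-of-ratios scaling. TSC1, an inhibitor of mTOR signalling, fell by 0.43, AKT1S1 by 0.36 and MTOR by 0.18, while EIF4EBP1, a repressor of cap-dependent translation, rose by 0.27 and RPTOR by 0.19, all with a limma adjusted p under 0.05.

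Of 220 tested protein-coding genes that contain a snoRNA gene, 68 (30.9%) were lower and 38 (17.3%) higher, where 24.0% and 12.1% of all tested genes were. Their median log2 fold change was -0.06, as over all tested genes to 2 decimals. After median-of-ratios scaling 39 were lower and 52 higher, where 16.4% and 16.8% of all tested genes were. In a split made after the values were seen, 17 of the 27 ribosomal protein genes among the 220 were higher and 2 lower, and 21 of the 193 others were higher and 66 lower. Examples of the largest rises were RAMP1 (0.75), CAMK1D (0.67) and RPS2 (0.53), and of the largest falls PARP16 (-0.97), C19orf48P (-0.78, listed as protein-coding in GENCODE 29) and ULK4 (-0.65), the last with a limma adjusted p of 0.0498.

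The proteins that bind and assemble snoRNAs showed small changes in both directions. Of 18 genes, 6 (33.3%) were lower and 3 (16.7%) higher (median -0.11), where 24.0% and 12.1% of all tested genes were. After median-of-ratios scaling 2 were lower and 4 higher, where 16.4% and 16.8% of all tested genes were. NOP10, an H/ACA core protein, fell by 0.22, NOP56, a C/D core protein, by 0.20 and the assembly factor ZNHIT3 by 0.18, whereas NHP2, another H/ACA core protein, rose by 0.22, NOP58, another C/D core protein, by 0.17 and RUVBL2 by 0.14. The call of NOP56 was lost with that scaling. Of 20 genes of ribosomal RNA synthesis and processing, 5 were lower and 2 higher (median -0.05), with 2 and 3 after median-of-ratios scaling. RRN3, an initiation factor of RNA polymerase I, fell by 0.33, POLR1C by 0.30 and FTSJ3 by 0.22, and BOP1 rose by 0.38 and MYC by 0.15, the MYC call being lost without any 1 library and that of POLR1C with median-of-ratios scaling. Of 16 factors of nonsense-mediated decay, which degrades many host transcripts, 7 (43.8%) were lower and 2 (12.5%) higher (median -0.15). After median-of-ratios scaling 5 were lower and 2 higher. SMG9, SMG8 and SMG5 fell by 0.39, 0.26 and 0.24, and UPF3A and RBM8A rose by 0.21 and 0.15.

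Of 10 tested long noncoding RNAs that are not snoRNA hosts, TUG1 and CYTOR were lower, by 0.21 and 0.14, and MALAT1 and NEAT1 higher, by 0.18 and 0.13, and 6 did not pass. After median-of-ratios scaling CYTOR was no longer called, and the MALAT1 and NEAT1 calls were each lost in most fits without 1 library. Of 12 genes of proliferation, 11 were lower (median -0.35), where 24.0% of all tested genes were, led by AURKA (-0.54), BUB1 (-0.49) and CDK1 (-0.40). After median-of-ratios scaling 9 of the 12 were lower, where 16.4% of all tested genes were. Of 10 growth arrest and p53 target genes, 6 were lower and 0 higher (median -0.35), where 24.0% and 12.1% of all tested genes were. After median-of-ratios scaling 5 were lower and 1 higher. The largest falls were those of GDF15 (-1.15), BTG2 (-0.70) and CDKN1A (-0.57). The part of proliferation and of the mitochondrial share in the changes of the host genes was not tested. With mitochondrial transcripts left out, 14 members were lower and 2 higher, where 25.3% and 11.3% of all tested genes were. The mitochondrial share was larger in the controls, and leaving it out lowered the log2 fold change of every tested member. Falls could therefore only deepen in that fit, so it cannot show whether the mitochondrial share had a part in them.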

How the data were processed

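RNA from U87-MG cells, 3 negative control and 3 knockdown-labelled libraries, was sequenced. The authors deposited TPM (to 2 decimals) of 61731 genes and loci in each library, and the depth is unknown. The submitters' processing notes name fastp, RSEM and GRCh38.p13. The labels and the study's methods name different RNA extraction and library kits. The annotation, the filters and the strand setting are not given in the sources used here. Symbols came from a table of gene names (61369 of 61541 Ensembl identifiers), and types, coordinates and hosted snoRNAs from GENCODE 29 (all 32 members matched), on GRCh38. Start sequences came from RefSeq (GRCh38.p14).

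Genes averaging 1 TPM or more (13722) were fitted as log2(TPM + 1) in limma 3.58.1 (R 4.3.3; lmFit, eBayes with trend, group as the only term), with Benjamini-Hochberg adjustment over all of them, and fold changes on this scale understate those of low genes. The 12 most abundant members and the 8 with the largest fold changes were given in full, with up to 3 falls and 3 rises per gene list. The members and lists were chosen with earlier results of these data known. Same-numbered libraries did not deviate together (correlations -0.0198, 0.0341 and 0.0334), so the numbers were not taken to pair them. Alternatives varied the pseudocount, the limit on low values, the scaling, the trend, the replicate number and each library. Some genes of the marker list and the neighbours are not reported here.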

Additional observations from a re-analysis of the deposited data

How the results depend on the processing

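The count of 14 lower snoRNA host genes moved by over 1.5 times with the scaling and without knockdown replicate 2 or control replicate 1. The count of 2 higher moved by over 1.5 times with median-of-ratios scaling, but stayed at 2 whichever single library was left out. With the deposited TPM, 24.0% of all tested genes were lower and 12.1% higher. The members' counts were 8 lower and 4 higher with median-of-ratios scaling (16.4% and 16.8% of all tested genes), 9 lower and 3 higher with quantile normalization (16.2% and 16.3%), and 0 lower and 0 higher when a log2 fold change of 1 or more in size was required (1.2% and 0.67%). Leaving out 1 library at a time gave 9 to 13 lower and 2 higher, with 9 both without knockdown replicate 2 and without control replicate 1, while 18.2% to 20% of all tested genes were lower and 9.52% to 10.6% higher. A term for the replicate number (replicate block) gave 10 lower and 2 higher (19.2% and 9.98% of all tested genes), and since the libraries share only a number, this is not a paired design. The cause of these moves was not tested, except that a fold limit can only remove calls. Pseudocounts of 0.1 (24.2% and 12.2% of all tested genes) and 0.5 (24.1% and 12.1%) and a limit of 5 TPM (30.6% and 15.2%) gave 14 lower and 2 higher members, and no limit on low values gave 10 and 2 (8.71% and 4.55%). Some log2 fold changes near 0 changed sign, none of them called. With median-of-ratios scaling and quantile normalization UBE3A was 0.0046 and 0.0129 and GLRX5 0.0636 and 0.0501, and with mitochondrial transcripts left out SEC14L1 was -0.0108 and MATR3 -0.0109. Without 1 library at a time, SNHG9 ranged from -0.3614 to 0.0197, SNHG20 from -0.2934 to 0.041, SNHG14 from -0.2289 to 0.0117, TRNAU1AP from -0.0626 to 0.0862, UBE3A from -0.1489 to 0.059, SEC14L1 from -0.0655 to 0.0537, GLRX5 from -0.0307 to 0.0206 and MATR3 from -0.0548 to 0.0596. TPM gives no depth, so no detection limit is stated for members near 0.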
